A study of Oryza sativa with 16 samples.

Results

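Leaves of unstressed IR64 rice seedlings were compared with leaves of unstressed Vandana seedlings, to describe how these varieties differed before any drought. The comparison used 4 of the 16 Affymetrix rice genome arrays of the series, chosen by their labels alone: 2 arrays of the drought-sensitive strain, IR64, under control conditions, and 2 arrays of the drought-tolerant strain, Vandana, under control conditions. All the seedlings grew hydroponically for 2 weeks, and the control seedlings received no stress. The rest of the series holds 2 arrays each of IR64 and Vandana leaves from seedlings taken out of the medium for 24 h, and of control and salt-treated leaves of the varieties VSR156 and CSR11. The labels name strains only as sensitive or tolerant, and the variety names come from the methods. Each group has an array A and an array B, which no source ties to separate plants, so that the errors below measure the spread between arrays, which may be technical. IR64 is a widely grown semi-dwarf indica variety of irrigated fields, and Vandana is an early upland variety. Tissue, age and time without medium are given here as in the labels. The methods differ among themselves and from the labels: they give a shorter time without medium, a younger age in 1 place, and leaves, pooled shoots or whole plants as the tissue in different places, so that a share of root in the RNA was not settled by the sources.

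A plant that loses water makes abscisic acid, a hormone that closes stomata and starts a gene programme of seed and drought tissue. The hormone binds receptors of the PYL family, these hold back type 2C protein phosphatases (PP2C), and SnRK2 kinases (SAPK in rice) then activate bZIP transcription factors. Among the target genes are those of the LEA (late embryogenesis abundant) proteins, dehydrins among them, which guard cells that dry out, and also several of the phosphatases and the enzyme that degrades the hormone. A separate system of grasses takes up iron with the help of nicotianamine and mugineic acids, and its genes are turned on together when iron is short. An array measures a variety through probes of fixed sequence, so that a difference in RNA level and a base difference, a deletion or another copy number at the probes cannot be told apart.

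The levels below are normalized intensities, that is, deposited intensities after quantile normalization over all 16 arrays. Differences are on the scale of log2(intensity + 16), IR64 minus Vandana, with a standard error from a limma model, and they understate the change of dim probe sets. A probe set was called higher or lower in IR64 where the difference was at least 1, which is 2-fold, and the p adjusted by Benjamini-Hochberg was under 0.05. The arrays of IR64 correlated at r = 0.991 with each other and those of Vandana at r = 0.989, across probe sets, whereas pairs of an IR64 and a Vandana array had r between 0.946 and 0.948. Before normalization the mean intensity was 104 and 123 on the IR64 arrays and 109 and 230 on the Vandana arrays. For GAPDH, the difference in log2 between its 3' and 5' control probe sets, a measure of RNA length, was 0.35 and -0.00043 for IR64 and 1.21 and 1.34 for Vandana. The same difference for actin was 1.55 and 1.68 for IR64, against 1.51 and 1.96 for Vandana, so that the varieties overlapped. The part of RNA quality in the results was not tested.

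Markers of leaf mesophyll were high on all 4 arrays, apart from 1. Among 6 mesophyll markers none was called, RBCS1 was at 7.19 or less on each array, and CAB2R, a chlorophyll-binding protein, had 4906 and 4739 in IR64, against 5164 and 5395 in Vandana. RCA, rubisco activase, had 5395 and 4906 in IR64, against 4480 and 5164 in Vandana. Of 6 root markers 1 was called, the iron transporter IRT1, while the silicon transporter LSI2 lay below 1 on each array. The silicon channel NIP2-1 was present, with 142 and 178 in IR64, against 126 and 124 in Vandana, and the metal transporter NRAMP5 had 22.2 and 18.7 in IR64, against 29.2 and 35.6 in Vandana. The part of root tissue in the results was not tested. Of 9 seed markers none was called, and 8 lay at 14.7 or less, with only the glutelin GLUA2 above that, at 162 and 173 in IR64, against 158 and 146 in Vandana. Of 5 meristem markers none was called. In bulk leaf tissue, fewer cells of a type and less RNA per cell cannot be told apart.

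The labels of the drought-stressed arrays are in doubt, and this touches every statement on them below. There were 51 probe sets with an intensity of at least 200 on both IR64 control arrays and below 16 on both Vandana control arrays, limits chosen after the values were seen. On both arrays labelled IR64 drought 22 of the 51 were at 200 or more and 0 below 16, and on both arrays labelled Vandana drought 33 were at 200 or more and 1 below 16. Conversely, 33 probe sets were at 200 or more on both Vandana control arrays and below 16 on both IR64 control arrays. Of these 33, 9 reached 200 on both arrays labelled IR64 drought and none was below 16 there, whereas on the arrays labelled Vandana drought none reached 200 and 29 were below 16. The median of these 33 was 4.33 in IR64 control, 307 in Vandana control, 133 in arrays labelled IR64 drought and 4.32 in arrays labelled Vandana drought. TPP7, a trehalose phosphate phosphatase gene that the genome of IR64 is known to lack, had 7.95 and 12.2 in IR64, against 198 and 190.2 in Vandana. It had 104 and 99.3 on the arrays labelled IR64 drought and 0.206 and 0.329 on those labelled Vandana drought. The control arrays thus went with their labels for TPP7, and the drought-stressed arrays went against theirs, while the arrays labelled IR64 drought had signal for both sets of probe sets. What those arrays hold was not tested.

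**Figure D1:**
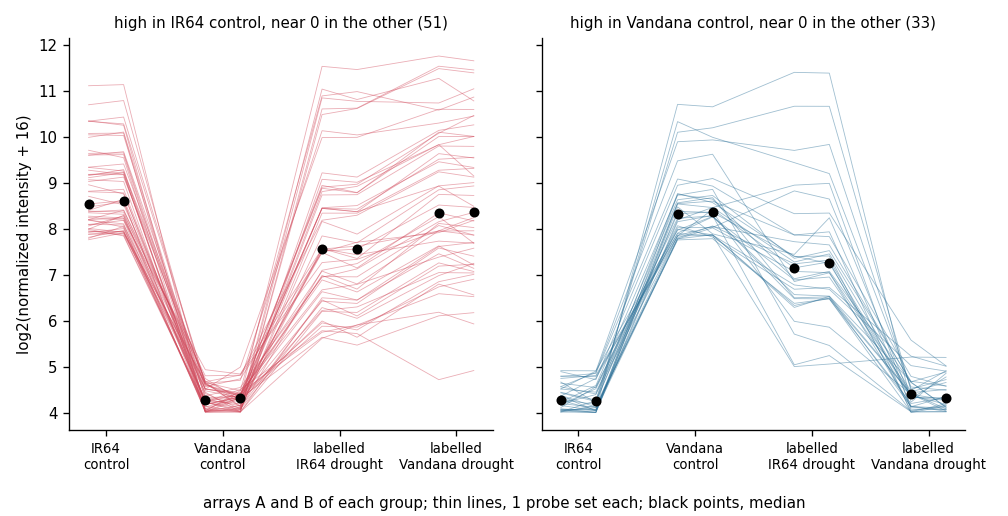
Levels of probe sets that were high on the control arrays of 1 variety and near 0 on those of the other, as log2(normalized intensity + 16) on arrays A and B of 4 groups. Thin lines are single probe sets and black points are medians. The 33 probe sets high in Vandana control (right) stay near the floor on the arrays labelled Vandana drought, with a median intensity of 4.32.

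Of 57194 probe sets, 1493 were called higher in IR64 and 1224 lower. Together these 2717 are 4.75% of those tested, with 2.61% higher and 2.14% lower. Differences of at least 3 log2 units were found for 138 probe sets higher in IR64 and 67 lower, and differences of at least 5 for 22 and 6. The median difference over all probe sets was -0.0036, and the median standard error of the called probe sets was 0.20. The array annotation names exactly 1 gene for 970 of the probe sets called higher and 846 of those called lower, and no gene for 514 and 370. When the brightest probe set stood for its gene, 831 of 17905 genes were higher and 720 lower. Among the 2449 genes with a symbol other than a locus number, 154 were higher (6.29%) and 95 lower (3.88%), and the shares of a gene list are to be read against these. Without quantile normalization the counts were much smaller, at 353 higher and 570 lower for the values as deposited.

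**Figure D2:**
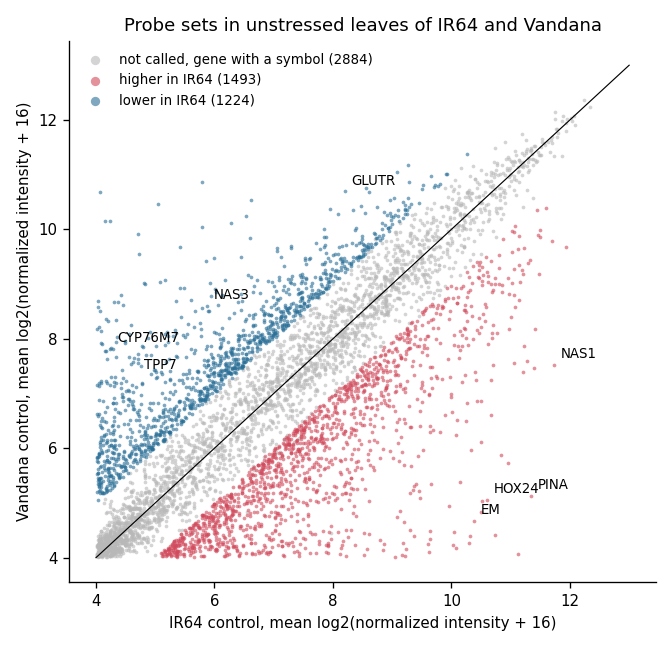
Mean level of each probe set on the control arrays of IR64 (x axis) and Vandana (y axis), as log2(normalized intensity + 16), for probe sets that were called or belong to a gene with a symbol. The 1493 red points are higher and the 1224 blue points lower in IR64, and the line marks equal levels.

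LEA and dehydrin genes were higher in unstressed IR64. Of 9 measured genes 7 were called higher and none lower, with a median difference of 1.99, against a median of -0.01 over all genes with a symbol. EM, an LEA protein of the embryo, had 1278 and 1361 in IR64, against 8.98 and 10.2 in Vandana (difference 5.71 ± 0.30, adjusted p = 3.58e-07 from limma). PM19L1, a membrane protein of the AWPM-19 family, had 1995 and 1947 in IR64, against 40.1 and 34.6 in Vandana (difference 5.22 ± 0.14), and its dimmer probe set, at 6.95 or less, was not called. The IR64 arrays were at or above 1278 for both genes and the Vandana arrays at or below 40.1.

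The 4 RAB16 dehydrin genes lie next to each other among the measured genes of chromosome 11, and all were called higher. RAB16B had 1336 and 1386 in IR64, against 110.2 and 92.3 in Vandana and differed by 3.56 ± 0.16. RAB16D had 327 and 272 in IR64, against 30.6 and 25.8 in Vandana and differed by 2.83 ± 0.20. RAB16C differed by 1.99 ± 0.21 and RAB21, the RAB16A gene, by 1.67 ± 0.18, from Vandana levels of 441 and 558 that were already high. These copies are alike in sequence, and probe sets whose names end in _s_at or _x_at, as 1 of the 2 for RAB21 does, hold probes that match more than 1 transcript, so that signal may be shared among them.

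These levels can be set beside those of the other groups. EM had 1105 and 1036 on arrays labelled IR64 drought, 1242 and 1383 on those labelled Vandana drought, 13.9 and 12.1 in VSR156 control and 10.8 and 13.4 in CSR11 control. EM was thus as high on the unstressed IR64 arrays as on the stressed arrays, and the unstressed Vandana arrays were at the level of the other unstressed varieties. HOX24, a homeodomain-leucine zipper transcription factor induced by dehydration, was likewise low in the other unstressed varieties but higher still on the stressed arrays, with 1533 and 1553 in IR64, against 19.1 and 15.5 in Vandana (difference 5.55 ± 0.12), 2596 and 2590 on arrays labelled IR64 drought, 2467 and 2788 on those labelled Vandana drought and at most 15.24 in the other controls. RAB16B was higher still on the stressed arrays as well, at 3588 and 3452 on those labelled IR64 drought and 3368 and 3444 on those labelled Vandana drought, and CSR11 control had 610.0 and 539.

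Of 17 measured genes of abscisic acid synthesis, breakdown and signalling 6 were higher and 1 lower, with a median of 0.45. ABA8OX2, which encodes the hydroxylase that degrades the hormone, had 489 and 509 in IR64, against 40.9 and 40.7 in Vandana (difference 3.18 ± 0.11, adjusted p = 1.78e-08). The kinase genes SAPK6 (1.601 ± 0.28), SAPK1 (1.145 ± 0.21) and SAPK3 (1.03 ± 0.20) were higher, as was ABF2, a bZIP factor, with 1767 and 1767 in IR64, against 512 and 477 in Vandana (1.81 ± 0.20). SAPK3 was not called without IR64 array B (0.99) or Vandana array B (0.96). TRAB1, another bZIP factor, was higher by 1.35 ± 0.32 but was not called when any 1 of the 4 control arrays was left out, with an adjusted p between 0.102 and 0.12. The receptor gene PYL11 was the one member lower, with 139 and 109 in IR64, against 320.2 and 309.9 in Vandana (-1.25 ± 0.17).

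PP2C genes were listed as a family, of which a part acts in this pathway. That part had no list of its own. Of 55 measured genes of the family 11 were higher and 2 lower, with a median of 0.14. PP2C68 had 655 and 709 in IR64, against 20.2 and 22.0 in Vandana (difference 4.23 ± 0.38, adjusted p = 2.46e-05). PP2C30 had 526 and 556 in IR64, against 60.03 and 96.0 in Vandana (2.59 ± 0.27), PP2C06 812 and 781 in IR64, against 119 and 125 in Vandana (2.56 ± 0.16) and PP2C47 966 and 1045 in IR64, against 122 and 91.3 in Vandana (3.07 ± 0.24). PP2C68, PP2C30, PP2C06 and PP2C09 belong to the clade that abscisic acid induces and that its receptors inhibit, and PP2C09 was higher by 2.16 ± 0.46. These genes were named because they were called, so that they do not stand for the whole clade. PP2C09 was not called without IR64 array B (adjusted p = 0.0923) or Vandana array B (0.0881). Against this direction, PP2C12 had 44.7 and 32.2 in IR64, against 298 and 299 in Vandana and was lower by 2.54 ± 0.23, and PP2C13 was lower by 1.003 ± 0.17, a call that was lost without IR64 array A (-0.99) or Vandana array A (-0.95), where the difference was under 1.

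BURP2, NRX2 and WNK7 were named for the size of their difference, and PSY3, NAC071 and HOX22 as called members of the pigment, NAC and homeobox lists. BURP2, of a plant family with a shared carboxy-terminal domain, had 2207 and 2476 in IR64, against 192 and 121 in Vandana (3.801 ± 0.20). PSY3, the phytoene synthase that serves abscisic acid synthesis in cereals, had 910.2 and 961 in IR64, against 75.6 and 88.9 in Vandana (3.28 ± 0.15). NAC071, also called NAC5, a stress transcription factor, had 1295 and 1283 in IR64, against 349 and 307 in Vandana (1.93 ± 0.17). HOX22, the closest relative of HOX24, had 1481 and 1453 in IR64, against 328 and 343 in Vandana (2.08 ± 0.13). NRX2, a nucleoredoxin, had 1048 and 1105 in IR64, against 74.5 and 75.5 in Vandana (3.58 ± 0.26), and WNK7, a protein kinase, had 588 and 510.3 in IR64, against 8.13 and 18.8 in Vandana (4.28 ± 0.25). No member was called among 13 DREB and ERF factors, 17 MAP kinases or 10 MYB factors. At the shares of all genes with a symbol, 6.29% higher and 3.88% lower, few calls would fall in lists this short. Of 21 heat shock factors 3 were higher, among them HSF05 at 2.24 ± 0.15. Among 27 heat shock proteins 3 were higher and 2 lower. HSP18.6 had 722 and 706 in IR64, against 118 and 149 in Vandana (2.297 ± 0.32), whereas HSP18.8 was lower by 1.09 ± 0.24, a call lost without IR64 array B (adjusted p = 0.117), Vandana array A (0.0799) or Vandana array B (0.0633).

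**Figure D3:**
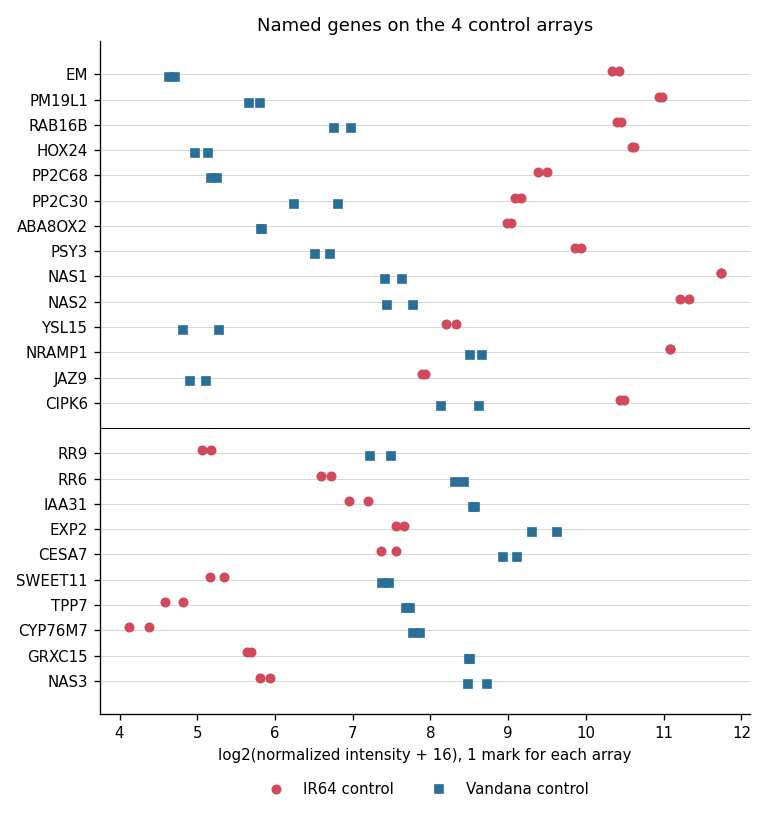
Levels of 24 named genes on each control array, as log2(normalized intensity + 16), with circles for IR64 and squares for Vandana. Genes above the line were called higher and genes below it lower in IR64. They were picked from called genes, so that the gap between the 2 varieties in each row follows largely from the choice. EM lies at 1278 and 1361 in IR64 and 8.98 and 10.2 in Vandana.

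Of 50 metal transport genes 11 were higher, 1 was lower and 38 were not called, with a median of 0.19. Several of those higher serve iron uptake, for which no list of its own was used. NAS1 and NAS2, which encode nicotianamine synthases, differed most within the list. NAS1 had 3388 and 3388 in IR64, against 155 and 182 in Vandana (4.21 ± 0.12, adjusted p = 7.65e-09), and NAS2 had 2550 and 2359 in IR64, against 202 and 157 in Vandana (3.67 ± 0.17). NAAT1, the aminotransferase that acts on nicotianamine on the way to mugineic acid, had 2986 and 2732 in IR64, against 1003 and 1009 in Vandana (1.49 ± 0.09). YSL15, the transporter that takes up iron bound to mugineic acid, had 305 and 278 in IR64, against 12.2 and 22.8 in Vandana (3.21 ± 0.18), and IRT1, which takes up free ferrous iron, had 78.9 and 79.6 in IR64, against 10.6 and 16.6 in Vandana (1.695 ± 0.20). NRAMP1, another metal transporter, had 2145 and 2152 in IR64, against 347 and 389 in Vandana (2.498 ± 0.28). IRO3, a bHLH regulator of iron responses that was not on the list and whose entry also bears the name IRO2, was higher by 2.27 ± 0.12 with 1368 and 1368 in IR64, against 264 and 279 in Vandana.

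The zinc transporter genes ZIP4 (2.01 ± 0.11) and ZIP1 (1.61 ± 0.21) and the copper pump HMA5 (1.499 ± 0.32) were higher. HMA5 was not called when any 1 control array was left out, with an adjusted p between 0.0539 and 0.0722. NAS3, the third nicotianamine synthase gene, ran the other way, with 45.2 and 40.1 in IR64, against 406 and 342 in Vandana and a difference of -2.73 ± 0.21. The metallothionein gene MT4C was the 1 of 7 called, with 1594 and 1703 in IR64, against 173 and 163 in Vandana (3.18 ± 0.14).

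The order of the varieties for these genes was not that of the LEA genes. NAS1 had 2201 and 2084 in VSR156 control and 4069 and 3971 in CSR11 control, below and above IR64, and the Vandana control arrays were the lowest of the 16 arrays. On the arrays labelled IR64 drought it had 917 and 900.4, and on those labelled Vandana drought 452 and 459. YSL15 had 1136 and 1552 in CSR11 control, above the IR64 arrays, and 108 and 123 in VSR156 control.

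Of 29 potassium and sodium transport genes 5 were higher, none was lower and 24 were not called, with a median of 0.32. HAK1, a high-affinity potassium transporter, had 202 and 184 in IR64, against 24.3 and 18.1 in Vandana (2.49 ± 0.15). AKT1, an inward potassium channel, had 308 and 339 in IR64, against 108 and 103 in Vandana (1.48 ± 0.13), and HAK18 differed by 2.04 ± 0.26. SKC1, the sodium transporter of a known salt tolerance locus, had 15.1 or less on each array. Of 25 aquaporins, the channels for water, 2 were higher, PIP1;3 by 1.75 ± 0.17 and TIP1;2 by 1.37 ± 0.20. Of 26 nitrate, ammonium and phosphate transporters 2 were higher, the phosphate transporters PT8 (1.38 ± 0.20) and PT1 (1.05 ± 0.20). PT1 was not called without IR64 array B (adjusted p = 0.0606), nor on another probe set (0.43 ± 0.30).

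Jasmonate and calcium genes were called in 1 direction only. Of 38 jasmonate genes 6 were higher and none lower, with a median of 0.43. They included 3 JAZ genes, whose proteins repress jasmonate responses and are themselves induced by the hormone. JAZ9 had 222 and 227 in IR64, against 18.5 and 14.1 in Vandana (2.900 ± 0.27), JAZ11 had 506 and 518 in IR64, against 110.3 and 118 in Vandana (2.02 ± 0.20), and JAZ8 differed by 1.44 ± 0.14. The jasmonate gene LOX2OSPIL lost its call without IR64 array B (1.35) or Vandana array A (1.36). Of 87 calcium signalling genes 11 were higher and none lower, with a median of 0.21. CIPK genes, whose kinases are switched on by calcium sensors, led them, with 1366 and 1417 in IR64, against 378 and 266 in Vandana for CIPK6 (2.08 ± 0.26) and 1635 and 1671 in IR64, against 515 and 406 in Vandana for CIPK14 (1.82 ± 0.19). The calcium genes ACA5 (1.04 to 1.06) and CML1 (1.29 to 1.41) were not called when any 1 control array was left out. CML8 lost its call without IR64 array B (1.10) or Vandana array A (1.07), and CML30 without Vandana array B (0.94).

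Defence genes were mixed. Of 14 pathogenesis-related and chitinase genes 3 were higher, CHT5 by 2.705 ± 0.23, CHT10 by 1.33 ± 0.24 and CHT4 by 1.28 ± 0.19. Of 6 WRKY factors 2 were higher, WRKY71 by 1.41 ± 0.24 and WRKY62 by 1.14 ± 0.25. WRKY62 was not called when any 1 control array was left out, with an adjusted p between 0.0551 and 0.109. In contrast, 2 of 17 genes of labdane diterpenoid phytoalexins were lower. CYP71Z7, by -1.01 ± 0.26, was not called when any 1 control array was left out, with an adjusted p between 0.0633 and 0.244. CYP76M7, a P450 of phytocassane synthesis, had 4.87 and 1.46 in IR64, against 204 and 218 in Vandana (difference -3.57 ± 0.15, adjusted p = 8.47e-08). It had 62.4 and 76.6 on the arrays labelled IR64 drought, and the highest of the other arrays had 5.42. OC-II, a cystatin that inhibits cysteine proteases, was higher by 1.23 ± 0.12.

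**Figure D4:**
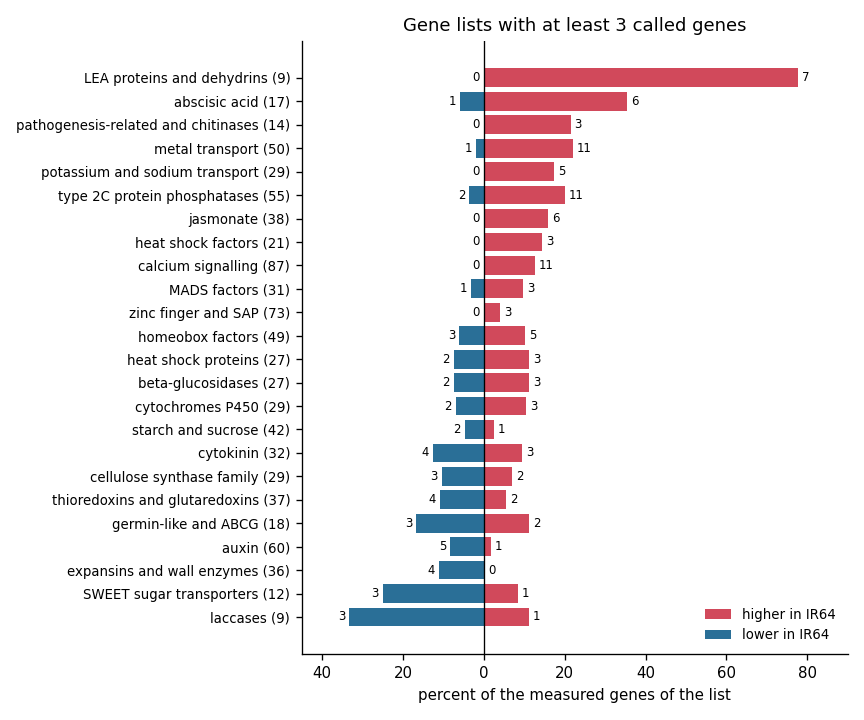
Share of the measured genes of each list called higher (red, right) or lower (blue, left) in IR64, for lists with at least 3 called genes. Numbers at the bars are counts, and the number of measured genes stands in brackets. The LEA list has 7 of 9 genes to the right, and laccases have 3 of 9 to the left.

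Of 70 genes for cell division and DNA copying 2 were lower and none higher, and of 34 kinesins 1 was lower, shares below that of all genes with a symbol. Of 13 response regulators of cytokinin signalling, which had no list of their own, 4 were lower, none was higher and 9 were not called. The 4 belong to type A, which cytokinin induces and which damps its signal. Of the same type, RR2 (-0.45 ± 0.30) and RR5 (-0.29 ± 0.24, at 8.19 or less on each array) were not called. Among the others not called, RR21 ran the other way (0.91 ± 0.15, adjusted p = 0.00245 from limma), under the 2-fold limit. RR22 (0.43 ± 0.18), RR23 (0.36 ± 0.15), RR24 (0.30 ± 0.24) and RR41 (0.11 ± 0.12) were above 0, and RR33 (-0.11 ± 0.17) and RR42 (-0.08 ± 0.14) below it. RR9 had 17.4 and 20.2 in IR64, against 164 and 134 in Vandana (-2.24 ± 0.28), RR6 had 89.3 and 80.6 in IR64, against 303 and 331 in Vandana (-1.72 ± 0.14), RR1 differed by -1.52 ± 0.14 and RR4 by -1.44 ± 0.18. Over the cytokinin list, 4 of 32 genes were lower and 3 higher, with a median of 0.03. The 3 that were higher were CKX11 (1.71 ± 0.15) and CKX4 (1.46 ± 0.28), whose enzymes degrade cytokinin, and LOGL5 (2.08 ± 0.20) of a family whose enzymes make the active form. CKX4 was not called without Vandana array B (adjusted p = 0.0509). Among 60 auxin genes 5 were lower and 1 higher. IAA31 had 130.2 and 107 in IR64, against 359 and 366 in Vandana (-1.496 ± 0.16) and its neighbour on chromosome 12, IAA30, differed by -1.004 ± 0.10, a call lost without IR64 array A (-0.92) or Vandana array A (-0.98), where the difference was under 1. IAA23 (-1.63 ± 0.19), IAA10 (-1.07 ± 0.13) and the carrier gene PIN5A (-1.22 ± 0.24) were lower as well, and PIN5A was not called without IR64 array B (adjusted p = 0.0671) or Vandana array A (0.0511). BU1, a helix-loop-helix gene of brassinosteroid responses, had 1.13 and 3.25 in IR64, against 47.9 and 36.3 in Vandana (-1.67 ± 0.20).

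Of 36 expansins and wall enzymes 4 were lower and none higher, with a median of -0.08. EXP2, an expansin, which loosens walls, had 173 and 186 in IR64, against 616 and 778 in Vandana (-1.86 ± 0.16), and EXPB11 had 162 and 181 in IR64, against 519 and 543 in Vandana (-1.55 ± 0.13). The 3 cellulose synthases of secondary walls, CESA4, CESA7 and CESA9, were all lower. CESA7 had 148 and 172 in IR64, against 538 and 474 in Vandana (-1.57 ± 0.22), CESA4 215 and 218 in IR64, against 539 and 605 in Vandana (-1.34 ± 0.14) and CESA9 26.2 and 37.1 in IR64, against 80.2 and 86.9 in Vandana (-1.07 ± 0.18), and CESA9 was not called without IR64 array A, where the difference was -0.91. Within the cellulose synthase family 3 of 29 were lower and 2 higher. Of 9 laccases, which polymerize lignin, 3 were lower and 1 higher, with a median of -0.54. LAC4 had 33.4 and 35.7 in IR64, against 271 and 292 in Vandana (-2.56 ± 0.20), and LAC24 was the one higher, by 1.79 ± 0.21.

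Of 12 SWEET sugar transporters 3 were lower and 1 higher. SWEET11 had 19.9 and 24.7 in IR64, against 149.9 and 161 in Vandana (-2.16 ± 0.16) and SWEET14 had 13.7 and 16.5 in IR64, against 87.7 and 109 in Vandana (-1.87 ± 0.16), both sucrose exporters that bacterial blight is known to exploit. SWEET15 was higher, with 277 and 257 in IR64, against 38.8 and 38.4 in Vandana (2.37 ± 0.35). Of 42 genes of starch and sucrose 2 were lower and 1 higher. TPP7, given above, differed by -3.01 ± 0.21, whereas TPP2 of the same family was higher by 1.87 ± 0.17, and the sucrose synthase gene SUS1 was lower by 1.28 ± 0.24. Among 37 thioredoxins and glutaredoxins 4 were lower and 2 higher, with GRXC15 at 35.8 and 33.9 in IR64, against 346 and 348 in Vandana (-2.84 ± 0.13). Of 16 antioxidant enzymes 1 was lower and 1 higher. The one higher was AOX1, the alternative oxidase, by 1.0004 ± 0.28, which was not called when any 1 control array was left out (adjusted p between 0.0544 and 0.309). APX1, an ascorbate peroxidase, had 307 and 326 in IR64, against 1003 and 1004 in Vandana (-1.62 ± 0.20), and PRX74, a class III peroxidase, had 40.5 and 36.7 in IR64, against 306 and 199.9 in Vandana (-2.27 ± 0.23).

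Of 25 photosynthesis genes 1 was called, FTSH6, a protease that is induced by heat and in ageing leaves, at 2.66 ± 0.20. Of 15 genes of chlorophyll and carotenoid synthesis 2 were higher, PSY3 and SGR, the stay-green gene of chlorophyll breakdown, at 1.02 ± 0.18, a call lost without IR64 array A (0.96) or Vandana array B (0.97), where the difference was under 1. GLUTR, glutamyl-tRNA reductase, the first enzyme of the path to chlorophyll, which the list had not matched, had 264 and 293 in IR64, against 1896 and 1427 in Vandana (-2.497 ± 0.23). RH2, a helicase, had 138 and 144 in IR64, against 751 and 833 in Vandana (-2.36 ± 0.17). Of 25 ribosomal protein genes 1 was lower, RPL5 by 1.06 ± 0.17 (not called without Vandana array A, at -0.93), and the median of the list was -0.49. None was called among 15 clock and flowering-time genes and 28 genes of gene silencing.

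Of 31 MADS factors 3 were higher and 1 lower. MADS26 had 195 and 164 in IR64, against 12.96 and 21.9 in Vandana (2.55 ± 0.27), and MADS55, of the family of flowering repressors, had 12.6 and 18.7 in IR64, against 155 and 158 in Vandana (-2.45 ± 0.19). Of 49 homeobox factors 5 were higher and 3 lower. HOX24 and HOX22 were followed by HOX7 (2.83 ± 0.31) and ROC4 (1.88 ± 0.25), and ROC5, whose protein acts in the leaf epidermis, was lower by 1.31 ± 0.10.

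None of 14 listed loci known to differ among rice varieties was called, nor any gibberellin gene. At 6.29% higher and 3.88% lower among all genes with a symbol, few calls would fall in lists this short. GA20OX2, the gibberellin oxidase of the semi-dwarf locus sd1, of which IR64 carries the short-straw form, had 25.5 and 26.7 in IR64, against 23.2 and 17.4 in Vandana (difference 0.22 ± 0.21, adjusted p = 0.76). The 95% interval of that difference was -0.24 to 0.68, on a scale that understates the change of a probe set this dim. Over 13 gibberellin genes none was called, and the values ran between -0.95 for CPS1, the first enzyme of the path, and 1.21 for EUI1, which inactivates the hormone. EUI1 had 103 and 85.3 in IR64, against 30.9 and 32.3 in Vandana and missed the threshold (adjusted p = 0.0556). GID2, the F-box protein of gibberellin responses, had 1136 and 949 in IR64, against 1657 and 1735 in Vandana (-0.699 ± 0.13, adjusted p = 0.00414), and the receptor gene GID1 had 545 and 535 in IR64, against 352 and 264 in Vandana (0.79 ± 0.16, adjusted p = 0.00816), both beyond the spread but under the 2-fold limit. The DELLA gene SLR1 differed by -0.05 ± 0.31, SLRL1 by 0.18 ± 0.23, SPY by 0.58 ± 0.28, GA20OX3 by 0.77 ± 0.27, KS1 by -0.09 ± 0.38, KAO by -0.36 ± 0.15, D35 by 0.16 ± 0.26 and GAMYB by -0.24 ± 0.30.

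Among the 14 variety loci the differences ran between -0.999 and 0.25. PPO, the phenol oxidase that separates indica from japonica grains in the phenol test, had 252 and 231 in IR64, against 546 and 454 in Vandana and lay at the limit (-0.999 ± 0.17, adjusted p = 0.00279). WX1, the granule-bound starch synthase of the waxy locus, had 7.02 and 12.4 in IR64, against 28.4 and 37.4 in Vandana (-0.93 ± 0.21, adjusted p = 0.0133). XA5, a transcription factor subunit of blight resistance, differed by -0.13 ± 0.12, and BADH2, the fragrance gene, by 0.25 ± 0.17. The day-length genes HD1 and HD3A were at 10.9 or less on each array. TAC1, of tiller angle, differed by -0.23 ± 0.24, GW2, of grain width, by 0.09 ± 0.13, PID2, of blast resistance, by -0.12 ± 0.17, and SKC1 by -0.38 ± 0.30. ALK, GIF1 and SPL14 lay at 14.7 or less, near the floor of the scale.

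Among genes known only by a locus number, the 5 widest differences on each side were as follows. LOC4328727 had 2191 and 2229 in IR64, against 0.313 and 1.147 in Vandana (7.06 ± 0.21, adjusted p = 7.65e-09), and LOC4352472 had 1641 and 1750 in IR64, against 6.34 and 4.10 in Vandana (6.33 ± 0.29). LOC4348272, LOC4329821 and LOC4329826 were higher by 5.81 ± 0.19, 5.65 ± 0.44 and 5.58 ± 0.22. In the other direction, LOC4350213 had 0.288 and 3.25 in IR64, against 1080 and 1156 in Vandana (-6.0 ± 0.15) and LOC4341223 had 3.55 and 2.17 in IR64, against 1269 and 999 in Vandana (-5.92 ± 0.21). LOC4352535, LOC4326058 and LOC4343183 differed by -5.06 ± 0.20, -4.55 ± 0.10 and -4.38 ± 0.21. In the variety with the lower level, these 10 genes were at 20.9 or less on each array, except LOC4352535, with 44.6 and 34.8 in IR64. The widest difference on the lower side was that of a probe set that the annotation gives to several genes, at -6.61.

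The controls of the other varieties did not all stand at 1 of these levels. LOC4328727 had 2492 and 2704 in CSR11 control, as in IR64, and 157 and 82.7 in VSR156 control. LOC4352535 had 2119 and 1733 in CSR11 control and 2262 and 2103 in VSR156 control, as in Vandana, so that IR64 was the variety that stood apart. LOC4326058 was below 1 on all 4 control arrays of CSR11 and VSR156 and high only in Vandana among the unstressed groups. LOC4352472 was high in VSR156 control, at 1505 and 1422, and low in CSR11 control, at 11.9 and 14.7. Among the 51 probe sets high in IR64 and near 0 in Vandana, 22 were below 16 on both VSR156 control arrays and 26 on both CSR11 control arrays. Among the 33 of the reverse kind these counts were 10 and 26. Before normalization the median over all probe sets was 13.5 and 10.7 on the VSR156 control arrays and 5.36 and 9.37 on the CSR11 ones. A level below 16 was thus common there, and these counts were not set against a share over all probe sets.

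PINA was the gene with a symbol that differed most, with 2674 and 2513 in IR64, against 19.9 and 17.9 in Vandana (6.22 ± 0.25, adjusted p = 5.20e-08), and it stood in a run of neighbours. Ordered by position in the Nipponbare annotation of RefSeq, LOC4325998, LOC4326000, PINA and OSE727A, also named RBTI, a Bowman-Birk trypsin inhibitor, follow each other on chromosome 1 among measured genes, and all were higher. LOC4325998 differed by 2.44 ± 0.13, LOC4326000 by 4.41 ± 0.37 and OSE727A by 3.24 ± 0.11. This run and that of the RAB16 genes were the longest, with 4 genes each. In all, 15 runs of 3 or more adjacent measured genes were called in the same direction, 7 higher and 8 lower. Among the lower ones, LOC9272373, LOC4326426 and LOC9270848 on chromosome 1 differed by -2.34 ± 0.15, -2.56 ± 0.12 and -2.49 ± 0.13, with 8.46 or less on each IR64 array and 86.3 or more on each Vandana array. With 831 of 17905 genes called higher and 720 lower, some runs can arise from order alone. What number would do so, and why neighbours were called together, was not tested.

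Genes with several probe sets were compared within the same arrays, where probe sets of 1 gene may overlap in sequence and are not independent. For 328 called genes the array holds 429 further probe sets. Of these, 133 were called in the same direction, 293 were not called and 3 were called in the opposite one. Among the 136 with a mean intensity of at least 50, 78 were called in the same direction, 2 in the opposite one and 56 not. Over all probe sets tested, 2.61% were called higher and 2.14% lower. C3H2, a zinc finger gene also named DOS, was among the exceptions. It had 1769 and 1689 in IR64 and 290 and 234 in Vandana on its brightest probe set (2.66 ± 0.15), but 64.5 and 58.2 in IR64 and 279 and 162 in Vandana on another (-1.57 ± 0.23). LOC4341407 had 20.1 and 19.6 in IR64 and 183 and 262 in Vandana on 1 probe set, but 257 and 266 in IR64 and 38.6 and 39.8 in Vandana on another.

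The same contrast was taken between the arrays labelled IR64 drought and Vandana drought, which share no array with the controls. There, 292 probe sets were called higher (0.511%) and 35 lower (0.0612%). Of the 1224 probe sets lower in unstressed IR64, 217 were called higher in the stressed contrast and 0 lower, with a median of 0.25. Of the 1493 higher in unstressed IR64, 33 were called lower and 3 higher, with a median of -0.22. NAS2 was 1 of the 3, at 1.35 ± 0.17 in the stressed contrast. LOC4350213, at -6.0 ± 0.15 without stress, was at 5.96 ± 0.15 in the stressed contrast, and CYP76M7, at -3.57 ± 0.15 without stress, was at 2.16 ± 0.15. The doubt on the labels of these arrays, given above, bears on each of these values, and stress and label cannot be told apart here.

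**Figure D5:**
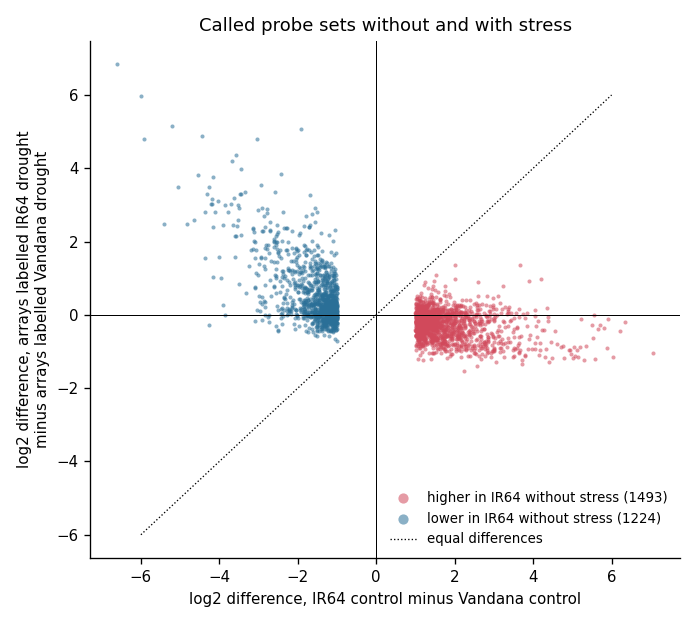
Difference of each called probe set without stress (x axis, IR64 control minus Vandana control) and with stress (y axis, arrays labelled IR64 drought minus arrays labelled Vandana drought), in log2 units. Of the 1224 blue points 217 were called above 0 on the y axis and 0 below it, and the dotted line marks equal differences.

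Salt arrays of other varieties give the response of the same probe sets to another stress. They lie outside the contrast but entered the normalization and the pooled error behind its calls. The counts are thus not independent of those calls, and the shares over all probe sets include dim ones. In VSR156, salt raised 340 of the 1493 probe sets higher in unstressed IR64 (22.8%) and lowered 110 (7.37%), where 3.33% of all probe sets rose and 4.42% fell. In CSR11, salt raised 108 (7.23%) and lowered 199 (13.3%), where 2.37% of all rose and 3.97% fell. Of the 1224 probe sets lower in unstressed IR64, salt raised 6.62% and lowered 14.9% in VSR156, and raised 4.9% and lowered 7.6% in CSR11. No difference between VSR156 and CSR11 was tested. EM had 175 and 157 in VSR156 salt, against 13.9 and 12.1 in its control, and YSL15 had 814 and 821 in VSR156 salt and 108 and 123 in its control. In CSR11, YSL15 had 272 and 319 with salt and 1136 and 1552 without. Both VSR156 salt arrays and CSR11 salt array B were dim before normalization, with means of 36.2, 22.9 and 9.16. The 3' to 5' difference of GAPDH was 7.68 and 8.16 in VSR156 salt, against 4.88 and 4.61 in its control, and 3.32 and 6.35 in CSR11 salt, against 3.05 and 2.05 in its control. The part of brightness and RNA quality in these counts was not tested.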

How the data were processed

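The authors deposited 1 linear intensity per probe set and array, made with GCOS 1.0 per the submitters' notes. The methods name RMA and a filter on absent calls, but the level of the deposited intensities differs from array to array and no calls are given. Of 57381 probe sets 187 controls were left out, and 57194 were quantile-normalized over 16 arrays and tested as log2(intensity + 16), a pseudocount that shrinks dim differences. The test was that of limma 3.58.1 (R 4.3.3) with a model of 8 group means (residual degrees of freedom 8, prior 2.94). That spread is pooled, so that arrays of other groups, dim ones included, enter each error. Python 3.11.15 with pandas 2.3.3 served for tables, and matplotlib 3.10.9 for plots.

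Genes were named from the array annotation, in which 22436 probe sets have 1 gene, 95 have several and 34663 have none. Identifiers of all 17905 genes matched RefSeq (ASM3414082v1, Nipponbare), used for symbols and the order of neighbours. Its coordinates are not given, because the build of the files is not given in the sources used here. A gene is represented by its probe set of highest mean over the 16 arrays.

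Named genes were the 10 genes with a symbol highest and lowest in IR64 among called genes without overlap and at 100 or more on both arrays of the higher group, the 5 by locus number on each side, up to 4 called members of each list and direction, and all members of the gibberellin and variety lists. Other members named in the text, such as NAAT1, ZIP4, ZIP1, HMA5, SAPK1, SAPK3, PP2C09, RAB16C, RAB21, JAZ8, IAA30 and IRO3, were chosen after their values were seen. The comparison, the members and the 58 gene lists were chosen with earlier results of these data known. PHT1, also named HCT3, was taken off the phosphate list after its values were seen, since its other name marks another family.

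On simulated data at the size of this comparison, over 57194 probe sets, 72% of shifts of 1.5 log2 units and 98% of shifts of 3 were called, with 2 false calls. The shifts were placed only in probe sets brighter than the median, so that recovery of dim ones was not simulated. The noise was normal and independent, without array effects or a normalization step, and the false calls hold only for such noise. Alternatives were other normalizations, pseudocounts, a filter on dim probe sets, fits on fewer arrays, a replicate block, each control array left out and the methods' t-test. The deviations of arrays with the same letter correlated at r between -0.025 and 0.014 in 4 pairs of groups, so that the letters did not pair the arrays and no block was used. Only 2 arrays a group limit the precision.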

Additional observations from a re-analysis of the deposited data

Results flagged for a closer look

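For 4238 of 57194 probe sets the difference between IR64 and Vandana was not the same without and with stress (interaction in limma, adjusted p under 0.05). Of these, 1288 were among those higher and 1034 among those lower in unstressed IR64. The interaction contains the control difference by which those probe sets were called. These counts, and the values of the named genes below, are thus not independent of the calls. In 250 probe sets both contrasts were called with opposite signs, and in 3 with the same sign. The labels of the stressed arrays are in doubt, as described above, and the part of this was not tested. Among the named genes 16 had opposite calls, and each value that follows is the difference without stress minus the difference with stress, in log2 units.

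LOC4328727 (8.08), LOC4329826 (6.8), BURP2 (4.93) and the germin-like gene GER2 (3.0) were higher in unstressed IR64 and lower in the stressed contrast. The reverse was seen for LOC4350213 (-11.96), LOC4341223 (-10.71), LOC4352535 (-8.54), LOC4326058 (-8.37), LOC4343183 (-5.93), TPP7 (-5.87), CYP76M7 (-5.73), PP2C12 (-4.76), EIL1 (-4.14, the copy also named EIL1B), GRXC10 (-3.49), GRXC1 (-2.67) and BGLU9 (-2.64).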

How the results depend on the processing

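Against 1493 probe sets higher and 1224 lower in unstressed IR64, arrays centred on their median gave 803 and 754, values as deposited 353 and 570, and a pseudocount of 64 gave 784 and 542. A call at the adjusted p alone gave 2783 and 2943. The methods' t-test gave 1195 and 902 at an unadjusted p under 0.05 and at least 2-fold, and 0 and 0 after Benjamini-Hochberg adjustment, where limma called 2717 and had 10775 probe sets at an unadjusted p under 0.05. With 1 of the 4 control arrays left out, the counts were between 1249 and 1338 and between 1022 and 1104. A fit with a replicate block gave 1483 and 1218 and kept 2689 of the 2717 calls. Choices added after the data were seen gave 1392 and 1139 without the 4 drought-stressed arrays, 1598 and 1294 without the 4 salt-stressed arrays, and 1775 and 1468 from the 4 control arrays normalized and modelled alone. The share of higher calls was 38.2% for values as deposited and 55% in the main setting.

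Of the probe sets lower in unstressed IR64, 217 were called higher in the stressed contrast, against 143 with median centring, 87 as deposited, 84 with a pseudocount of 64 and 137 with dim probe sets filtered out. Without 1 control array the count was between 204 and 208. For those higher and then called lower the count was 33, against 71 with quantile normalization over the 8 drought-experiment arrays, 2 with median centring, 1 as deposited, 10 with a pseudocount of 4 and 8 with one of 64. Without 1 control array it was between 26 and 27. The count of further probe sets with the same call was 133, against 67 with median centring, 39 as deposited, 56 with a pseudocount of 64, 83 with the dim filter, 83 with the t-test unadjusted, 0 adjusted and 261 at the adjusted p alone, and between 99 and 107 without 1 control array.

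Of 152 named probe sets none turned its direction. As deposited 116 lost the call, with median centring 83, with a pseudocount of 64 40, and with 1 control array left out 17 or 18. EM, PM19L1, HOX24, PP2C68, NAS1, PSY3, PINA, JAZ9, CYP76M7, TPP7, RR9, LAC4 and GLUTR kept theirs as deposited. Of the 24 lists with 3 or more calls, 23 changed their count by over 1.5 times as deposited, 19 with median centring and none with 1 control array left out. The median of the beta-glucosidase list was -0.02 with the brightest probe set of each gene and 0.071 with the mean of its probe sets. No sequence of the probes was used here, and the depth of an array has no counts, so that only the signal over the floor limits dim genes.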
